A study of Homo sapiens with 4 samples.

Results

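The nuclear basket is the cage of filaments that the nuclear pore complex extends into the nucleus. NUP153, a nucleoporin with FG repeats, anchors the cage to the pore. TPR, a long coiled-coil protein, forms its filaments. Other proteins dock there: NUP50 helps importins release cargo, ZC3HC1 helps attach TPR, SENP1 and SENP2 remove the modifier SUMO from proteins, MAD1L1 waits at interphase pores before serving the spindle checkpoint, and MCM3AP scaffolds the TREX-2 complex, which brings mRNA to the pore for export. These 8 genes were taken from the deposited count table by symbol, 1 row each, out of 56657 rows, and all 8 were among the 16817 genes with enough counts to test.

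RNA was sequenced from TE5 cells, an established human line from an esophageal squamous cell carcinoma, carrying a lentiviral short hairpin RNA against NUP153 (shNUP153, n = 2 libraries) or a control hairpin (shControl, n = 2, genotype given as WT), all at day 7. All cells had passed puromycin selection. The study asks what NUP153 depletion does to gene expression in these cells. The labels do not give hairpin sequences, whether the replicates came from separate infections, or what g1 and g2, attached to the shNUP153 libraries, stand for. The p-values therefore reflect library-to-library spread alone, which may be technical, and off-target effects of the hairpins cannot be told apart from effects of NUP153 loss.

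Libraries held 25247932 and 23396626 counts in shNUP153 and 22606593 and 27396268 in shControl. Of 10 squamous or general epithelial markers, 9 were measured well enough to test, TP63 and SOX2 among them, while KRT14 had 6 to 13 counts per library. The summed level of the 10 markers was 2382 to 2392 CPM (counts per 1000000, scaled by the TMM method) in shNUP153 and 2234 to 2302 CPM in shControl. By edgeR at an adjusted p under 0.05, 1 of the 9 was higher and 6 were lower in shNUP153, where 15% of all tested genes were higher and 17.4% lower. TP63 and DSG3 did not pass. KRT17 alone (1252 and 1238 CPM in shNUP153, 745 and 724 CPM in shControl) makes the sum higher. Without it the other 9 markers sum to 1140 and 1143 CPM in shNUP153, against 1557 and 1510 CPM in shControl, with EPCAM 2.02-fold and CDH1 1.54-fold lower in shNUP153. Leukocyte markers summed to at most 0.253 CPM in shNUP153 and 0.300 CPM in shControl, and fibroblast markers to at most 0.927 CPM in shNUP153 and 0.600 CPM in shControl, with DCN and LUM at 0 counts. Of 4 endothelial markers, CDH5 and VWF were higher in shNUP153 (summed level of the 4 markers 24.1 to 25.2 CPM against 11.1 to 12.3 CPM in shControl), with PECAM1 and KDR at 0 to 3 counts. Their part in the results below was not tested. In such bulk samples, fewer cells with a transcript and less of it per cell cannot be told apart.

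With NUP153 reduced, the basket transcripts did not move as a block. NUP153 itself, SENP2 and MCM3AP were clearly lower in shNUP153, SENP1 was slightly lower, NUP50 was slightly higher, and TPR, ZC3HC1 and MAD1L1 did not pass the test. By edgeR's quasi-likelihood test at an adjusted p under 0.05, 4 of the 8 fell and 1 rose, against a background of 17.4% of all tested genes lower and 15% higher (32.4% in either direction). The 4 include NUP153, whose fall is the knockdown itself, and SENP1, whose call was lost in 10 of 11 alternative fits. The median log2 fold change (shNUP153 over shControl) was −0.07 over the 8 members and 0.01 over all tested genes. With library totals alone in place of TMM, 62.8% of all calls were higher instead of 46.3%, and 3 members fell and 1 rose. For 6 of the 8 members both shNUP153 libraries lay on one side of both shControl libraries, while 64.4% of all tested genes showed such a separation.

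Several of these genes start back to back with a neighbour, and the promoter windows of NUP50, SENP1 and TPR are shown because the paired transcripts are compared with them below. Each is the RefSeq window of 300 bases on GRCh38.p14, from 250 bases before the gene's start to 50 after it, 5′ to 3′ on the gene's own strand. NUP50 lies on the plus strand at chr22:45163675-45163974, SENP1 on the minus strand at chr12:48105806-48106105 and TPR on the minus strand at chr1:186375204-186375503. Capitals mark matches to the motifs described next.
NUP50: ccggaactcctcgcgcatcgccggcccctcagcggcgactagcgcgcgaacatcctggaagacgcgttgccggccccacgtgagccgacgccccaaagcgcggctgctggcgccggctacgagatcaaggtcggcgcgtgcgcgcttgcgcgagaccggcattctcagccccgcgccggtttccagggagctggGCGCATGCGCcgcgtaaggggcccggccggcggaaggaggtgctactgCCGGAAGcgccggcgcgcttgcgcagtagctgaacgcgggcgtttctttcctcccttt
SENP1: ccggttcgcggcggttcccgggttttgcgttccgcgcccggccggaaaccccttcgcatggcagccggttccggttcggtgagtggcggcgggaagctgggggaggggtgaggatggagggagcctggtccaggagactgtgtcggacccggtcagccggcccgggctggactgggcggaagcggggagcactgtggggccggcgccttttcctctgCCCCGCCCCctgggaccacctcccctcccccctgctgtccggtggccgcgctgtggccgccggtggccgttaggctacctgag
TPR: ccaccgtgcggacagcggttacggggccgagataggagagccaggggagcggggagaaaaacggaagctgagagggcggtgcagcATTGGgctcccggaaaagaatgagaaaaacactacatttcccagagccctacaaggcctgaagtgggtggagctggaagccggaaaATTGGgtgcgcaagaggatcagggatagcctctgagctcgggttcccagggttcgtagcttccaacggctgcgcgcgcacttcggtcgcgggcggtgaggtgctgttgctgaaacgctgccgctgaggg

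The motifs searched on both strands in the windows of 7 members (SENP2 was not matched) were CCAAT, the ETS core CCGGAAG, the E2F forms TTTGGCGC and TTTCCCGC, the NRF1 sequence GCGCATGCG, the YY1 sequence AAGATGGCG, the cAMP response element TGACGTCA, TATAAA and the SP1 sequence GGGGCGGGG. The NUP50 window shown holds NRF1 matches on both strands that overlap, at positions −56 and −55 from the start, and an ETS match at position −8. The window at the other listed NUP50 start holds no match to any of the motifs. Of 35116 windows in the RefSeq table, 1.92% hold that NRF1 sequence and 10.3% that ETS core. The SENP1 window shown holds 1 SP1 match on the reverse strand, found in 15.7% of windows, and its other listed starts hold an ETS match. The TPR window holds CCAAT on the reverse strand at positions −165 and −79, and the MCM3AP window has 2 matches to it as well, 1 on each strand. CCAAT occurs in 34.6% of windows. ZC3HC1 has the YY1 sequence just after its start, a match present in 1.75% of windows, and no match was found for NUP153 or MAD1L1. GC content was 71.3% for NUP50, 73.3% for SENP1 and 61.3% for TPR in the windows shown, against a median of 58.7% over all windows. It was 76.3% for the other NUP50 window and 67.7% and 59.7% for the other SENP1 windows. It was 69.3% for MAD1L1, 58.3% for NUP153, 50% and 50.3% for the ZC3HC1 windows and 42.7% for MCM3AP. These are letter matches, not sites shown to be bound.

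NUP153 (ENSG00000124789, chromosome 6), the target, had 67.9 and 81.9 CPM in the shNUP153 libraries, against 148.9 and 141.6 CPM in the shControl libraries. The groups were far apart, and replicate 1 of shNUP153 was the lowest of the 4. The fall was 1.94-fold (log2 fold change −0.96, 95% interval −1.08 to −0.83, SE 0.06, edgeR adjusted p = 1.05e-14), larger in size than that of 95.4% of tested genes. The NUP153 transcript thus remained at a fold of 0.515 relative to shControl. Its replicates differed more within shNUP153 (by 0.27 on the log2 scale) than within shControl (0.07). Leaving out 1 library at a time gave log2 fold changes of −1.10 to −0.83. The antisense gene AL138724.1 shares 558 bases of exon sequence with NUP153 and had at most 131 counts in any library, where NUP153 had at least 1762.

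**Figure D1:**
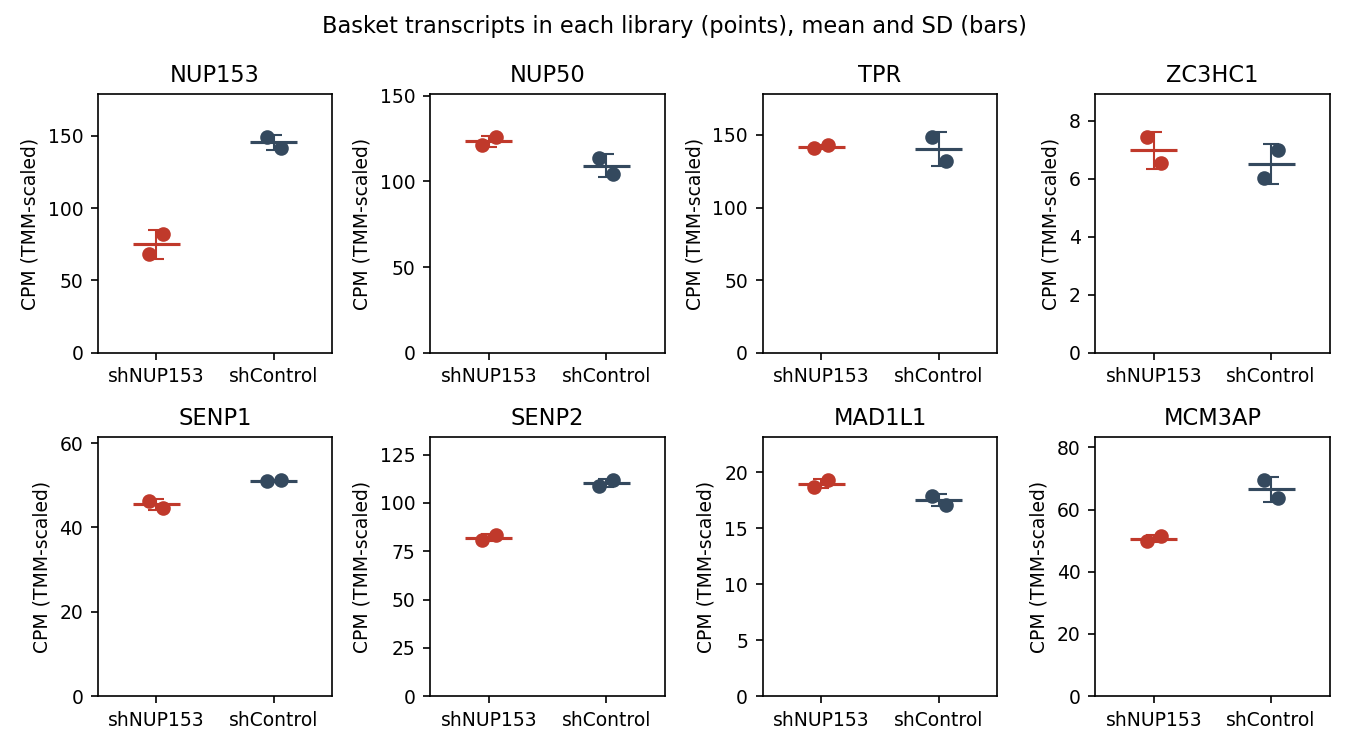
Level of each of the 8 basket transcripts in TMM-scaled CPM, shNUP153 (red) left of shControl (dark blue), with 2 libraries per group as points and the mean ± SD as bars. NUP153, SENP2 and MCM3AP sit lower in both shNUP153 libraries, and the points of TPR and ZC3HC1 overlap between groups.

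NUP50 (ENSG00000093000, chromosome 22), the mobile FG nucleoporin that binds both NUP153 and importin alpha, had 121 and 126 CPM in shNUP153, against 114 and 104 CPM in shControl. Both shNUP153 libraries were above both shControl libraries, by little. The rise was 1.13-fold (log2 fold change 0.18, 95% interval 0.07 to 0.29, edgeR adjusted p = 0.00909), and 46.5% of tested genes had a smaller change in size. The call was lost without replicate 1 (adjusted p = 0.0668) or replicate 2 (0.179) of shNUP153 and without replicate 2 of shControl (0.0997), with log2 fold changes of 0.12 to 0.21 in those fits.

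NUP50-DT, a noncoding RNA transcribed away from NUP50, starts 144 bases from it in the RefSeq table, inside the NUP50 window shown above. It had 342 and 283 counts in shNUP153, against 239 and 265 in shControl, a mean of 12.6 ± 0.890 CPM in shNUP153 and 10.4 ± 0.590 CPM in shControl (SD, n = 2 each). Both members of the pair were thus higher in shNUP153, but NUP50-DT narrowly missed the threshold (log2 fold change 0.28, SE 0.11, edgeR adjusted p = 0.0515). It passed in 3 of 11 alternative fits, with library totals alone (0.0146), with upper-quartile factors (0.0233) and without replicate 1 of shControl (log2 fold change 0.34). In the other 8 it missed, among them the DESeq2 Wald test (adjusted p = 0.206) and edgeR with no filter on low counts (0.114).

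TPR (ENSG00000047410, chromosome 1), the filament protein, had 141 and 143 CPM in shNUP153, against 148 and 132 CPM in shControl. The shNUP153 values lay between the shControl values. TPR changed by 0.02 on the log2 scale (SE 0.05, by edgeR adjusted p = 0.836), with a 95% interval of 0.939-fold to 1.09-fold, and the log2 fold change was −0.065 without replicate 2 of shControl. With 3292 to 3655 counts per library, TPR was among the best measured members, and changes beyond that interval were not detected. ODR4, which starts head to head with TPR (585 bases apart in the RefSeq table), was likewise close between groups, at 52.1 ± 2.85 CPM in shNUP153 and 52.3 ± 1.80 CPM in shControl.

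ZC3HC1 (ENSG00000091732, chromosome 7) was the scarcest member, with 193 and 155 counts in shNUP153 and 134 and 187 in shControl. These counts correspond to 7.44 and 6.53 CPM in shNUP153, against 6.04 and 7.01 CPM in shControl, and the groups overlapped. Its log2 fold change of 0.09 had a wide 95% interval, 0.873-fold to 1.31-fold (edgeR adjusted p = 0.663). Counting error alone was 7.20% to 8.64% per library here, against 1.65% to 1.74% for TPR, and its sign turned without replicate 1 of shNUP153 (−0.0041) or of shControl (−0.0028).

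SENP2 (ENSG00000163904, chromosome 3), a SUMO protease that binds NUP153, had 80.7 and 83.4 CPM in shNUP153, against 109 and 112 CPM in shControl. Replicates lay close together and the groups did not overlap. The fall was 1.35-fold (log2 fold change −0.43, 95% interval −0.54 to −0.32, edgeR adjusted p = 7.78e-08), and 79.1% of tested genes changed less. It passed in all 11 alternative fits (log2 fold changes of −0.45 to −0.37).

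SENP1 (ENSG00000079387, chromosome 12), the related SUMO protease, had 46.4 and 44.6 CPM in shNUP153, against 51.1 and 51.2 CPM in shControl. The groups did not overlap but lay close. The log2 fold change was −0.17 (95% interval −0.30 to −0.04, edgeR adjusted p = 0.0441), and the call was lost in 10 of the 11 alternative fits (highest adjusted p = 0.291), so SENP1 sat at the edge of the threshold. Whether SENP2 changed more than SENP1 was not tested. SENP1 shares 628 bases of exon sequence on the opposite strand with PFKM, the muscle-type phosphofructokinase gene, and 2 RefSeq starts of PFKM lie inside the SENP1 window shown above. PFKM had 82.4 ± 1.42 CPM in shNUP153 and 108 ± 0.773 CPM in shControl (log2 fold change −0.39, edgeR adjusted p = 3.86e-07). Since no source used here gives the strand setting of the counting, reads of the overlap could count for either gene, and the part of PFKM in the SENP1 value was not tested.

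**Figure D2:**
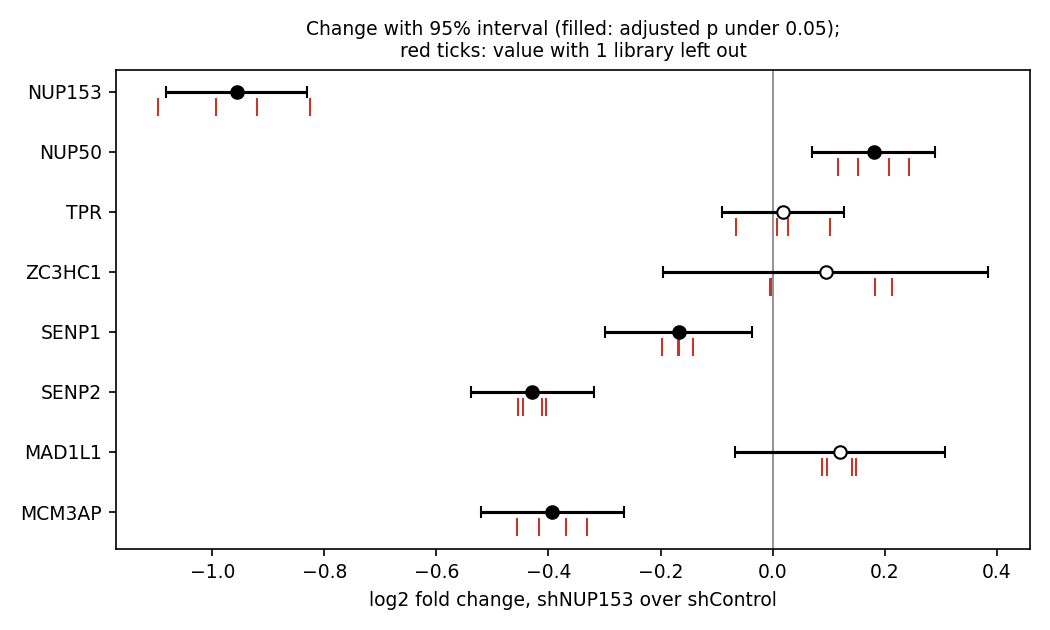
Log2 fold change (shNUP153 over shControl) of each basket transcript with its 95% interval from edgeR, filled where the adjusted p was under 0.05, and as red ticks the values with 1 library left out. NUP153, SENP2, MCM3AP and SENP1 stay left of 0 whichever library is left out, TPR and ZC3HC1 straddle 0, and NUP50 and MAD1L1 stay right of it.

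MAD1L1 (ENSG00000002822, chromosome 7), the checkpoint protein that TPR holds at the interphase pore, had 18.7 and 19.3 CPM in shNUP153, against 17.9 and 17.1 CPM in shControl. Both shNUP153 libraries were higher than both shControl libraries, but the test was not passed (log2 fold change 0.12, 95% interval 0.955-fold to 1.24-fold, edgeR adjusted p = 0.347). It passed in none of the 11 alternative fits, where the lowest adjusted p was 0.133.

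MCM3AP (ENSG00000160294, chromosome 21), the TREX-2 scaffold also known as GANP, had 49.8 and 51.4 CPM in shNUP153, against 69.4 and 63.6 CPM in shControl. The groups did not overlap. The fall was 1.31-fold (log2 fold change −0.39, 95% interval −0.52 to −0.27, edgeR adjusted p = 6.06e-06), and it passed in all 11 alternative fits (−0.46 to −0.33). An antisense gene, MCM3AP-AS1, shares 1427 bases of exon sequence with it. MCM3AP-AS1 was near 3 CPM, at 2.74 ± 0.482 CPM in shNUP153 and 2.95 ± 0.0351 CPM in shControl (log2 fold change −0.10, adjusted p = 0.770). YBEY, which starts back to back with MCM3AP, had a log2 fold change of 0.15 (edgeR adjusted p = 0.405).

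Levels of different genes were compared per kilobase of exon sequence (CPM per kb, from the union of exons in GENCODE 29), since CPM alone grows with transcript length. In shControl, NUP153 had the highest level of the 8 members, 24.1 ± 0.857 CPM per kb (SD, n = 2), followed by SENP2 (15.4 ± 0.266), NUP50 (13.1 ± 0.806), TPR (11.4 ± 0.935), SENP1 (8.06 ± 0.00953), MCM3AP (7.11 ± 0.433), MAD1L1 (2.42 ± 0.0732) and ZC3HC1 (2.17 ± 0.229). In shNUP153 the order at the top was different. NUP50 led with 14.9 ± 0.387 CPM per kb, and NUP153 (12.4 ± 1.64), TPR (11.5 ± 0.107) and SENP2 (11.4 ± 0.267) followed with values that overlapped between libraries. SENP1 (7.17 ± 0.200), MCM3AP (5.41 ± 0.124), MAD1L1 (2.63 ± 0.0549) and ZC3HC1 (2.32 ± 0.213) kept places 5 to 8. With the longest coding transcript as the length, a choice made after the data were seen, NUP153 was still first in shControl and NUP50 first in shNUP153, but NUP50 (20.9 CPM per kb) was then above SENP2 (19.3) in shControl, and NUP153 (12.4) was below TPR (14.6) and SENP2 (14.3) in shNUP153.

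Within a library, the level of NUP50 per kb was 1.29 and 1.11 times that of NUP153 in shNUP153, against 0.554 and 0.534 times in shControl. TPR stood at 1.01 and 0.851 times NUP153 in shNUP153, against 0.487 and 0.455 times in shControl. SENP2, which fell itself, stood at 0.999 and 0.856 times NUP153 in shNUP153 and at 0.616 and 0.664 times in shControl. For each of the other 7 members both shNUP153 ratios were above both shControl ratios, and each ratio includes the fall of NUP153 itself. Only 1.31% of all tested genes had a lower log2 fold change than NUP153, so most genes would give higher mean ratios too. The rise of the ratios is therefore not particular to the basket. The ratios depend on the length used. With the longest coding transcript, NUP50 stood at 2.06 and 1.77 times NUP153 in shNUP153 and at 0.881 and 0.849 times in shControl. TPR (1.29 and 1.08 times in shNUP153, 0.619 and 0.579 times in shControl) and SENP2 (1.25 and 1.07 times in shNUP153, 0.772 and 0.832 times in shControl) were then also above NUP153 in both shNUP153 libraries. With 2 libraries per group the smallest two-sided p of an exact permutation test is 0.333, so these ratios were not tested.

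**Figure D3:**
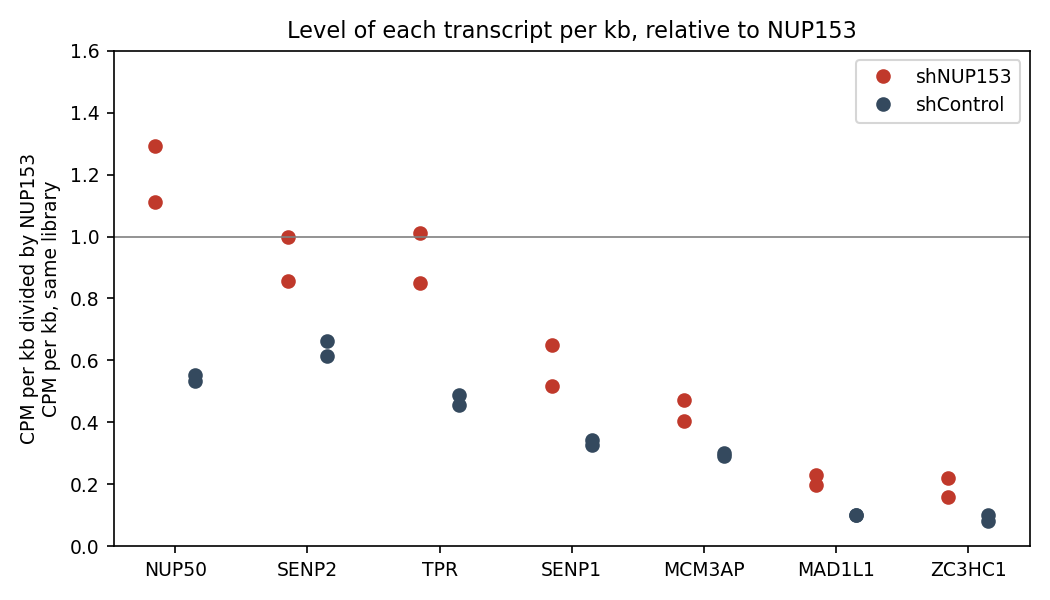
Level of 7 basket transcripts per kb of exon divided by that of NUP153 in the same library, shNUP153 (red) left of shControl (dark blue), 2 libraries each, with a line where both are equal and length taken as the union of exons, on which the places relative to the line depend. NUP50 lies above the line in both shNUP153 libraries and at 0.554 and 0.534 in shControl. The other transcripts are also higher relative to NUP153 in shNUP153, as most genes would be, since NUP153, the divisor, fell.

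Genes that work with the 8 members were grouped into 6 lists, 75 genes in all, each present once in the table and all tested. Of these, 32 fell and 5 rose in shNUP153, 49.3% in either direction against 32.4% of all tested genes, with a median log2 fold change of −0.12. The lists were chosen with earlier results of these data known. Most partner genes were more abundant than MAD1L1, whose mean level was above that of 51.9% of tested genes. The share was not compared with that of genes of like level. With library totals alone the split was 23 lower and 11 higher, or 45.3% against 33.8% of all tested genes in that fit. The partner median was then −0.06, while the median of all tested genes moved up as well, from 0.01 to 0.07. Without replicate 1 of shNUP153 the count was 23 genes, 20 lower and 3 higher, or 30.7% against 18% of all tested genes in that fit.

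Of 12 spindle checkpoint partners of MAD1L1, 9 fell and 0 rose, against 17.4% lower and 15% higher of all tested genes, with a median of −0.26. The RZZ subunits KNTC1 (65.9 ± 0.474 CPM in shNUP153, 83.3 ± 0.720 CPM in shControl, log2 fold change −0.34) and ZW10 (−0.36), the kinase gene BUB1 (−0.33) and TRIP13 (−0.27), the ATPase that recycles MAD2, were the 4 with the smallest p, at edgeR adjusted p of 1.31e-05 to 0.000133. TTK (−0.14), BUB3 (−0.02) and MAD2L1BP (0.00) did not pass. MAD1L1 itself, as given above, did not pass the test and had a positive fold change.

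In the list of TREX-2 subunits and the mRNA exporter, 4 of 9 fell and 1 rose (55.6% in either direction, against 32.4% of all tested genes), with a median of −0.04. CETN3, a centrin, had 5.98 and 7.29 CPM in shNUP153, against 15.7 and 13.7 CPM in shControl. The libraries of the groups were far apart. CETN3 changed by −1.15 on the log2 scale (SE 0.12, by edgeR adjusted p = 3.13e-09), a larger fall than that of NUP153 itself. CETN2, the other centrin in the list and a TREX-2 subunit, fell by 0.28 on the log2 scale and SAC3D1 by 0.25, as did NXT1 by 0.22. NXF1, the exporter that hands mRNA through the pore, rose (99.4 ± 1.07 CPM in shNUP153, 83.0 ± 2.60 CPM in shControl, 0.26, adjusted p = 0.000297). The TREX-2 subunits PCID2 (0.02), ENY2 (−0.04) and SEM1 (0.07) did not pass, so the scaffold MCM3AP and the centrins were lower while those other subunits were not shown to change. The call for SAC3D1 was lost without replicate 1 of shNUP153 (adjusted p = 0.128) and that for NXT1 in 5 of 11 alternative fits.

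Of 22 genes for SUMO conjugation and removal, 4 fell and 2 rose, 27.3% against the 32.4% of all genes, with a median of −0.01. SUMO3 had 103 and 108 CPM in shNUP153, against 137 and 137 CPM in shControl (log2 fold change −0.38, edgeR adjusted p = 4.0e-07). RANGAP1 (−0.19), the Ran regulator that is modified by SUMO at the pore, also fell, as did the SUMO protease gene USPL1 (−0.25). The SUMO protease gene SENP7 rose (0.43, by edgeR adjusted p = 0.0368). SENP3 (−0.17), SENP5 (0.06) and SENP6 (0.12) did not pass, nor did SUMO2 (−0.05) or RANBP2 (0.08), a ligase of the cytoplasmic filaments. The calls for SENP7 and USPL1 were each lost in 5 of 11 alternative fits.

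Of 13 genes for the sites where the basket docks, the Y complex, NUP98 and the lamins, 8 fell and 1 rose (69.2% in either direction, against 32.4% of all tested genes), with a median of −0.21. LMNB1 (log2 fold change −0.58) and LMNB2 (−0.34), the B-type lamins, fell. LMNA did not pass (−0.00, SE 0.04, edgeR adjusted p = 0.964), at 625 CPM in shNUP153 and 627 CPM in shControl. The Y complex genes NUP160 (−0.55) and NUP37 (−0.44) fell most in that complex, and AHCTF1, which recruits it to chromatin, rose (0.16, adjusted p = 0.0106), a call lost in 3 of 11 alternative fits. Among import receptors and the Ran cycle, 6 of 14 fell and 1 rose (50% in either direction, against the same 32.4%), with a median of −0.06. CSE1L (−0.35), which returns importin alpha to the cytoplasm, RANBP1 (−0.33) and the exportin gene XPO1 (−0.30) fell, and the importin alpha gene KPNA4 rose (0.29). Of the other importin alpha genes in the list, KPNA1 (0.14), KPNA2 (−0.08), KPNA3 (−0.04), KPNA5 (0.13) and KPNA6 (0.08) did not pass.

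ZC3HC1 has also been described as part of an SCF ubiquitin ligase acting on cyclin B1. The list held genes for ligase subunits, for cyclin B1 and for CDK1, the kinase partner of cyclin B1 and not itself a ligase subunit. Of these 5 genes, 1 fell and 0 rose (20% in either direction, against 32.4% of all tested genes), with a median of −0.12. The 1 that fell was CDK1 (147 ± 0.104 CPM in shNUP153, 168 ± 8.63 CPM in shControl, log2 fold change −0.19, edgeR adjusted p = 0.00318). The other 4 did not pass, CCNB1 (−0.13), RBX1 (−0.12), CUL1 (−0.11) and SKP1 (−0.02). The CDK1 call was lost without either shNUP153 library (adjusted p = 0.0751 and 0.0694), and CCNB1 passed without replicate 1 of shControl (0.0244) and with no filter on low counts (0.0484).

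**Figure D4:**
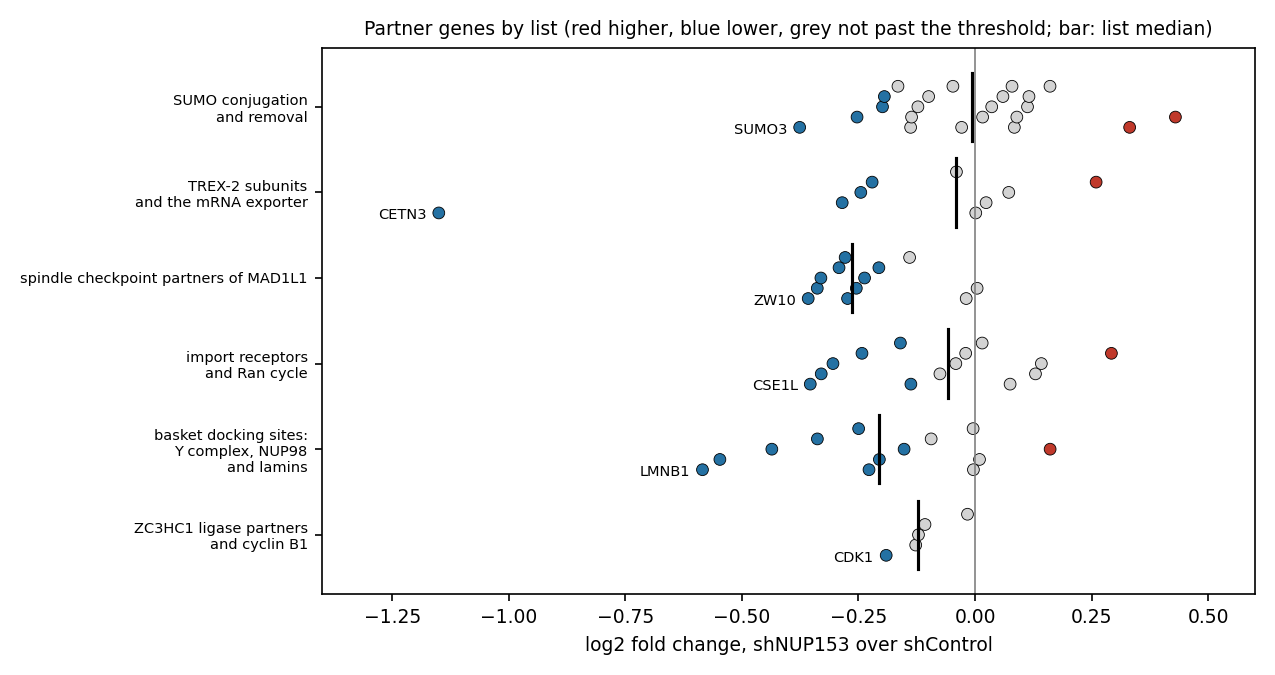
Log2 fold change (shNUP153 over shControl) of the 75 partner genes in 6 lists, red where higher and blue where lower at an adjusted p under 0.05 by edgeR, grey otherwise, with the list median as a bar and the lowest gene named. CETN3 stands far left at −1.15, and the checkpoint list lies almost wholly left of 0.

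The genes whose pattern over the 4 libraries was most like that of each changed member were found by the distance between centred log2 CPM values, among 11021 genes with a mean of at least 5 CPM. For NUP153 these were PLA2G4A (distance 0.06), RACGAP1 (0.07) and JPH1 (0.08). PLA2G4A had 16.3 and 20.3 CPM in shNUP153, against 37.7 and 34.4 CPM in shControl, so it shared both the fall and the lower value in replicate 1 of shNUP153. For SENP2 the nearest were TK1, LRRCC1 and ZNF395 (0.01 to 0.03), for MCM3AP they were ANLN, AHI1 and IPO5 (0.03 to 0.04), for NUP50 WWC2, SCOC and CA5B (0.01 to 0.02), and for SENP1 LRRC59, TMED10 and RPL39 (0.00 to 0.01). With 4 libraries in 2 groups, this likeness is a description only.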

How the data were processed

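Whole-number counts per gene were deposited for the 4 libraries, in a table whose name says FPKM. Since library totals differ and all values are whole, the analysis took them as unnormalized read counts. A log2 ratio is given too in the authors' deposited table. It was −0.93 for NUP153 and entered no test. Per the submitters' processing notes, kallisto, DESeq2, Bowtie2, deepTools and the build hg19 were used, with no role given. The counting annotation and strand setting were not found in those notes or labels.

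The members and partner lists were chosen with earlier results of these data known. Genes were kept by filterByExpr (minimum count 10, minimum total 15), which left 16817 of 56657 rows, and tested with edgeR 4.0.16 in R 4.3.3 (TMM scaling, quasi-likelihood test, two-sided, Benjamini-Hochberg over all tested genes, threshold 0.05, no covariate). The procedure was tested on simulated data with few changed genes, evenly up and down, and with changes larger than most reported here. That test does not cover small changes or the dependence of the calls on scaling. Standard errors were derived from the fold change and F statistic, and 95% intervals from the model's degrees of freedom. Replicates differed by more than sampling noise (chi-square per gene 3.09 within shNUP153 and 3.57 within shControl, where noise gives about 1). Exon lengths and overlaps come from GENCODE 29 on GRCh38, and promoter windows from RefSeq on GRCh38.p14, used by gene and not by hg19 position. The counting error given for ZC3HC1 and TPR leaves out the spread between libraries, which the 95% intervals include.

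Named genes are all 8 members, the 4 genes of each partner list with the smallest p, the 3 genes nearest in pattern to each changed member (prior count 1), the locus neighbours, and others named to complete a small count, whose choice came after seeing their values. Within the SUMO list, some genes count in the totals but are not reported here by name. Alternatives were RLE, upper-quartile and library-total scaling, no filter on low counts, DESeq2 1.42.0, no abundance trend, a replicate block and leaving out each library.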

Additional observations from a re-analysis of the deposited data

How the results depend on the processing

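Of the 8 members, the falls of NUP153, SENP2 and MCM3AP passed in all 11 alternative fits. The SENP1 call held only with RLE scaling, and the NUP50 call was lost in 3 fits, both as given above. NUP153 ranged from −1.10 to −0.83 with 1 library left out. The count of members past the threshold was 3 to 4 with 1 library left out, instead of 5. The count of all genes past it was 3027 to 5274 with 1 library left out, instead of 5448, and that of partner genes 23 to 39, instead of 37. DESeq2 called 3556 genes. Where only 1 library of a group remained, it was assumed to vary like the other group. The sign reversed for TPR without replicate 2 of shControl (−0.065, range −0.065 to 0.10 with 1 library left out) and for ZC3HC1 without replicate 1 of shNUP153 (−0.0041) or of shControl (−0.0028, range −0.0041 to 0.21), none of them past the threshold. The cause was not tested. The deviations of same-numbered libraries from their group means correlated at r = −0.0034 over genes, so the numbers are not taken to pair the samples. With the replicate block, 5465 genes, 4 members and 36 partner genes passed, and SENP1 missed the threshold (−0.17, adjusted p = 0.0525). Depth limits ZC3HC1 most, at 134 to 193 counts.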
